A study of Mus musculus with 34 samples.

Results

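Imprinted genes are known to be expressed mainly or only from the chromosome inherited from 1 parent, in some cases only in certain tissues. The 48 genes described here are imprinted genes of the mouse. They were taken from a list of gene symbols, matched through Ensembl identifiers to 48 of the 52636 genes in the deposited expression table, and read by cluster and by the parental allele that is known to be expressed. The list holds 24 maternally and 24 paternally expressed genes in 19 clusters or single loci. RNA was measured in F1(G4) embryonic stem cells (ESCs) of strain 129S2/C57Bl6J, either wild type or null for Handsdown (Hdn), a long non-coding RNA transcribed beside the heart and limb regulator Hand2. Undifferentiated ESCs of both genotypes were compared with cells on days 3, 4, 5 and 6 after aggregation in hanging drops and plating on fibronectin with 20 ng/mL BMP4, a signalling protein that directs these cells towards mesoderm. All groups had been freed of feeder cells and kept in 2i medium beforehand, per the labels' protocols. The 30 libraries form 10 groups of 3, so n = 3 for each mean ± SD below. The labels give neither the sequence altered in the mutants nor the number of clones, and nothing in them says that replicates came from separate cultures, so p-values measure the spread between these libraries, which may be technical.

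At many imprinted loci, though not all, DNA methylation is set in the egg or the sperm. There this mark at an imprinting control region decides which parental copy of the neighbouring genes is transcribed. Many paternally expressed members promote growth of the embryo and placenta, and several maternally expressed members restrain it. Clusters often pair a long non-coding RNA with protein-coding genes that are silenced on the same chromosome, as Kcnq1ot1 and Airn do. The deposited values add both alleles together, so the parent of origin used below is background knowledge and was not measured in these cells. Imprinting is known mainly from the placenta for Osbpl5, Tssc4, Cd81, Ppp1r9a, Slc22a3, Sfmbt2 and Dcn. It is known mainly from the brain for Blcap, Ube3a, Inpp5f, Rasgrf1, Peg13, Trappc9 and Kcnk9, and from the heart for Ddc. In Gnas it covers part of the transcripts. Whether these genes are imprinted in the cells used was not tested. In bulk RNA, fewer cells of a type and less RNA per cell cannot be told apart.

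Values are given as scaled RPKM, the authors' read values normalised for gene length and library depth, after division by 1 size factor per library. A gene was tested when at least 3 of the 30 libraries reached 1 scaled RPKM, which 14196 genes and 38 of the 48 members did, 19 of each parental class. A gene is called higher or lower when limma, run on log2(scaled RPKM + 0.5), put its adjusted p below 0.05 over the 14196 genes and its log2 change at 1 or more in either direction. That scale understates the change of low genes. The 10 members below the filter were Kcnq1ot1, Kcnq1, Ppp1r9a, Rtl1, Magel2, Slc22a3, Dcn, Rasgrf1, Peg13 and Kcnk9. Libraries held 27.5 M to 44.1 M reads in genes, and a count of 0 allows up to 3 reads.

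The targeted gene was checked first. Hdn had 0 reads in all 6 ESC libraries. Wild-type libraries had 19, 24 and 29 reads on day 5 and 60, 37 and 240 on day 6. Mutant libraries of those days had 0, 0 and 1, then 0, 8 and 3. Several libraries stood apart. The summed level of 7 mature heart transcripts (Myl2, Myh6, Myl3, Tnni3, Cox8b, Cox6a2 and Ckmt2) was 1.14 to 3.69 in the wild-type libraries, 40 in mutant day 4 replicate 3, 53.5 in mutant day 5 replicate 3 and 127 to 343 in the day 6 mutants, while Cox8b and Ckmt2 were at 0 in all 15 wild-type libraries. The same 5 mutant libraries held adult globin transcripts, with a sum over 5 red cell genes of 73.1 and 109.5 in those of days 4 and 5 and 249 to 720 in the day 6 mutants. Wild-type day 6 replicate 3 held such transcripts too, at 49.3, and the other wild-type libraries had 0.225 to 4.82. Y-linked transcripts summed to 0.611 to 1.01 in the 3 wild-type ESC libraries and to at least 4.86 in every other library. The part of these differences in the results below was not tested, and the ESC and day 6 comparisons could not be made without the libraries concerned because these make up whole groups. The pluripotency genes summed to 1316 to 1397 in wild-type and 1323 to 1350 in mutant ESCs, and were lower in all later groups. Mutant ESC replicate 1 also stood apart. Trim28, a cofactor of ZFP57 picked after its values were seen, was at 979, 1010.0 and 760.4 in wild-type and 944, 400.5 and 432 in mutant ESCs.

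H19, Igf2 and Mest, whose levels moved far in these cells, are also hosts of microRNA genes, and their mature sequences are shown because a change in the host transcript is the only view the table gives of them. Mature microRNAs themselves were not measured. The sequences are from RefSeq on GRCm38.p6, written 5′ to 3′ with the seed, bases 2 to 8, in capitals. Mir675 lies within H19 on the minus strand (5p at chr7:142577112-142577133, 3p at chr7:142577078-142577099), Mir483 within Igf2 on the minus strand (chr7:142654968-142654989 and chr7:142654932-142654952) and Mir335 within Mest on the plus strand (chr6:30741314-30741336 and chr6:30741354-30741375).
mmu-miR-675-5p: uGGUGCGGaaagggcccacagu
mmu-miR-675-3p: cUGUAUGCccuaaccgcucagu
mmu-miR-483-5p: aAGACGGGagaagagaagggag
mmu-miR-483-3p: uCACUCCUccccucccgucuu
mmu-miR-335-5p: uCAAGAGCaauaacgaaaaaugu
mmu-miR-335-3p: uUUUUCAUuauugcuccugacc
No seed is shared among the 6 sequences.

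Differentiation of wild-type cells sets the levels against which the mutants are read. Among the members tested, rises outnumbered falls as these cells differentiated. From ESC to day 3, 14 of the 38 tested members rose and 3 fell, against 17.4% of all genes rising and 20.3% falling. From ESC to day 6, 23 rose and 1 fell, where 20.8% of all genes rose and 21.4% fell. The median log2 change of the members to day 6 was 1.5, and that of all genes was 0.04. Both counts share the wild-type ESC libraries. The filter also bears on them, since most of the 30 libraries are of differentiated cells. Zim1, Airn, Usp29, Osbpl5, Sgce, Asb4 and Dlk1, at means of 0.0027 to 0.08 in wild-type ESCs, passed only through differentiated libraries. From ESCs onward such members could be called higher but not lower, in either genotype. All genes met the same filter. H19, the maternally expressed non-coding RNA that shares enhancers with the growth factor gene Igf2, rose by 9.46 (SE 0.35) on the log2 scale by day 6, and Igf2 rose by 9.28 (SE 0.30). The growth restrainers Cdkn1c, a cell-cycle inhibitor, and Phlda2, a brake on placental growth, rose by 7.47 (SE 0.31) and 5.77 (SE 0.51). Dlk1, a membrane protein of the Notch ligand family, rose by 7.80 (SE 0.56), Peg10, a retrotransposon-derived gene needed in the placenta, by 6.44 (SE 0.30) and Nnat, a small membrane protein of neural and endocrine cells, by 5.31 (SE 0.44). Ddc, which makes dopamine and serotonin, was the 1 member that fell, by 2.64 on the log2 scale (SE 0.13), from 9.47, 9.18 and 10.3 scaled RPKM in ESCs to 1.22, 0.981 and 1.2 on day 6.

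In the Hdn null series, 12 members rose and 6 fell from ESC to day 3, against 18.2% and 21.6% of all genes, and 21 rose and 3 fell by day 6, against 23.1% and 24% of all genes. H19 rose by 2.55 (SE 0.35) to day 3 in mutants, and by 7.55 (SE 0.35) in wild type. Igf2 rose by 5.67 (SE 0.30) to day 3 in mutants and by 6.82 (SE 0.30) in wild type. Impact, a regulator of the translational stress response, fell in mutants, by 1.16 on the log2 scale to day 6, and rose in wild type, by 1.05 (SE 0.25). Neither call held without 1 of the ESC libraries, at -0.99 without mutant replicate 2 and 0.98 without wild-type replicate 1. Meg3, the maternally expressed non-coding RNA of the Dlk1 cluster, fell by 1.84 in mutants to day 6.

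Mutant and wild-type cells were then compared at each stage. In ESCs 6 of the 38 tested members were higher in mutants and 0 were lower, against 8.55% of all genes higher and 3.13% lower. At an unadjusted p under 0.05, with no limit on size, 6 members were lower in mutant ESCs, and by limma-voom on reads recovered from the RPKM steps the ESC counts were 10 higher and 3 lower. The background moved when replicate 1 of the mutant ESCs was dropped, to 1490 genes above and 965 below wild type of 14022 tested, from 1214 and 444 of 14196. On day 3, 2 members were higher and 5 lower, against 0.873% and 2.48% of all genes. On day 4, 3 were higher and 4 lower, against 2.37% and 2.81%. On day 5, 7 were higher and 5 lower, against 2.42% and 3.59%. On day 6, 10 were higher and 4 lower, against 3.66% and 4.12%. The median log2 change of the 38 members was 0.07 in ESCs, -0.11 on day 3, 0.15 on day 4, 0.31 on day 5 and 0.51 on day 6, beside medians over all genes of -0.10, -0.01, 0, 0 and 0.01. Without the mutant libraries that hold mature heart transcripts, 2 members were higher and 4 lower on day 4, and 5 were higher and 5 lower on day 5. The day 6 count could not be taken without them. Leaving out 1 library moved 5 of these counts by more than 1.5 times. The ESC counts became 3 higher without mutant replicate 2 or 3, and 1 lower without wild-type or mutant replicate 1. The day 3 higher count became 1 without wild-type replicate 1 or 2 or mutant replicate 2, and 0 without wild-type replicate 3 or mutant replicate 1. The day 4 higher count became 6 without wild-type replicate 1, and the day 5 higher count became 4 without wild-type replicate 2. Over all genes, 563 were higher on day 5 without wild-type replicate 1, beside 343. Without wild-type day 6 replicate 3, 10 members were higher and 4 lower on day 6, as with it.

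Separation of the 2 genotypes, with all 3 mutant values outside the range of the 3 wild-type values, was common among all genes. In ESCs mutants lay wholly below wild type for 10 of the 38 members and wholly above it for 14, against 30.6% and 26.2% of all genes. The counts were 13 and 8 on day 3 (23.5% and 18.7% of all genes), 6 and 9 on day 4 (18.9% and 18.3%), 6 and 14 on day 5 (16.4% and 13.8%) and 7 and 20 on day 6 (20.7% and 18.4%). As a share, the 10 of 38 in ESCs lie under that of all genes, and the 20 of 38 on day 6 lie over it.

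**Figure D1:**
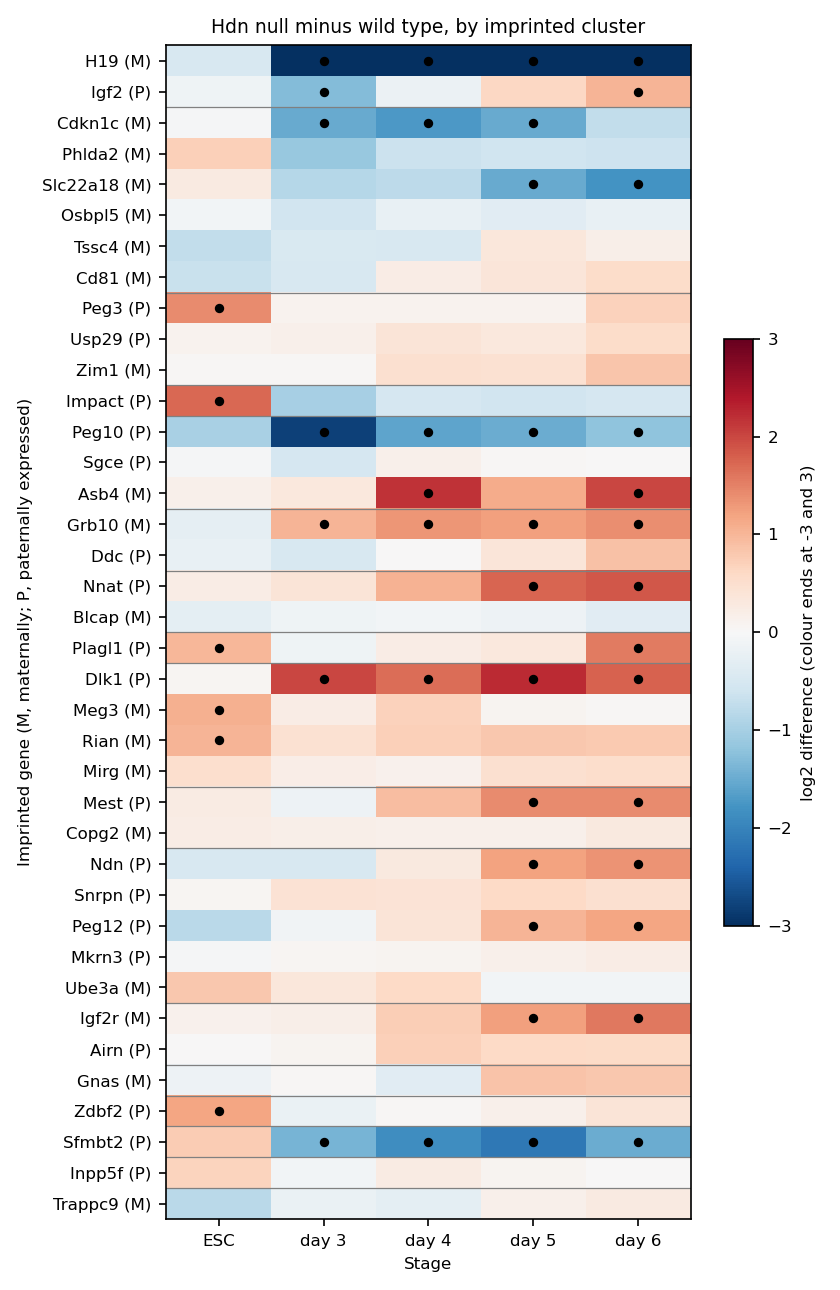
Log2 difference between Hdn null and wild-type cells (colour, red higher in mutants, cut at -3 and 3) for the 38 imprinted genes tested (rows, grouped by cluster, M maternally and P paternally expressed) at the 5 stages (columns), with a dot on each gene called higher or lower. H19, Peg10 and Sfmbt2 were lower at all 4 stages from day 3. Dots on red cells number 6 in ESCs, and grow from 2 on day 3 to 10 on day 6.

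By parental allele, the lower calls held both classes at every differentiated stage. On day 3, 2 of the 19 maternally expressed members tested were lower and 1 was higher, and of the 19 paternally expressed members 3 were lower and 1 higher. On day 6 the counts were 2 lower and 3 higher for the maternal class and 2 lower and 7 higher for the paternal class. The median log2 change on day 6 was 0.28 for the maternal and 0.57 for the paternal members. The lists are of equal length and were not tested against each other, so no difference between the classes is stated. Each class holds members known to be imprinted mainly in certain tissues. In ESCs 2 maternal members (Meg3 and Rian) and 4 paternal members (Peg3, Impact, Plagl1 and Zdbf2) were higher. Averaged over the 5 stages, 3 members were higher (Asb4, Nnat and Dlk1) and 4 lower (H19, Cdkn1c, Peg10 and Sfmbt2), against 0.768% and 1.89% of all genes. The averaged call of Asb4 ended without mutant day 4 replicate 3 (0.94). That of Nnat ended without wild-type replicate 2 of day 4, 5 or 6 or replicate 3 of day 5, at log2 changes of 0.96 to 1.00.

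**Figure D2:**
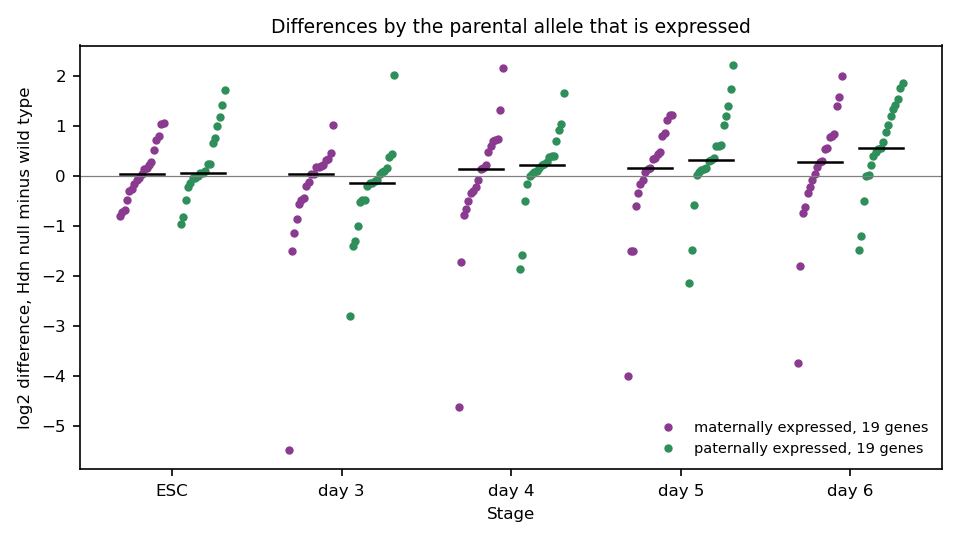
Log2 difference between Hdn null and wild-type cells (y axis) for each tested imprinted gene (points, sorted) at each stage (x axis), with 19 maternally expressed genes in purple, 19 paternally expressed genes in green and black bars at the class medians. H19 is the lowest purple point from day 3 on, at -5.48, -4.63, -4.00 and -3.75.

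H19 and Igf2 lie side by side on chromosome 7 (GRCm38, H19 at 142575530 to 142578146 and Igf2 at 142650768 to 142666816). A methylated control region between them normally lets the paternal chromosome express Igf2 and the maternal one H19. H19 showed the largest mutant difference among the 38 members tested. In wild type its scaled RPKM in replicates 1 to 3 was 0.827, 1.28 and 1.96 in ESCs, 339, 429 and 259 on day 3, 1066, 1008 and 801 on day 4, 1093, 1386 and 957 on day 5 and 1099.5, 1471 and 1251 on day 6. In mutants they were 1.84, 1.29 and 0 in ESCs, 6.83, 8.51 and 5.9 on day 3, 30.9, 40.5 and 43.8 on day 4, 79.2, 72.8 and 60.6 on day 5 and 103, 86 and 91.7 on day 6. Genotypes overlapped in ESCs, where H19 was near its lowest, and did not overlap on any later day. The mean on day 3 was 342 ± 85 in wild type and 7.08 ± 1.32 in mutants, a 48.4-fold difference and a log2 change of -5.48 (SE 0.35, adjusted p = 7.99e-10). On day 6 it was 1274 ± 187 and 93.5 ± 8.58, 13.6-fold apart, with a log2 change of -3.75 (SE 0.35, adjusted p = 3.64e-08).

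Igf2, which encodes a fetal growth factor, changed in opposite directions early and late. Wild-type replicates held 0.452, 0.72 and 0.698 in ESCs, 83.9, 185 and 129 on day 3, 414, 524 and 431 on day 4, 605, 715 and 607 on day 5 and 572, 739.6 and 786 on day 6. Mutant replicates held 1.05, 0.747 and 0.042 in ESCs, 45.7, 52.8 and 55.1 on day 3, 277, 383 and 622 on day 4, 883, 929 and 1178 on day 5 and 1421, 1366 and 1411 on day 6. Mutants were lower on day 3, with a log2 change of -1.30 (SE 0.30, adjusted p = 0.00389), overlapped wild type on day 4 and lay above all wild-type libraries on days 5 and 6. The log2 change on day 6 was 1.01 (SE 0.30, adjusted p = 0.0136), and on day 5 it was 0.63 (SE 0.30, adjusted p = 0.157). Once wild-type replicate 1 was left out, the day 6 change was 0.87 (adjusted p = 0.0564) and no longer called, and under both other scalings it was 0.98 to 0.99. With a pseudocount of 0.1 neither the day 3 nor the day 6 call held (adjusted p = 0.0503 and 0.108). The log2 ratio of H19 to Igf2, each with 0.5 added, was 0.69 ± 0.31 in wild-type and 0.33 ± 0.39 in mutant ESCs, and 0.87 ± 0.17 against -3.90 ± 0.11 on day 6. This ratio compares 2 levels per length and counts both alleles. It was highest in wild-type libraries at each differentiated stage, with no overlap.

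**Figure D3:**
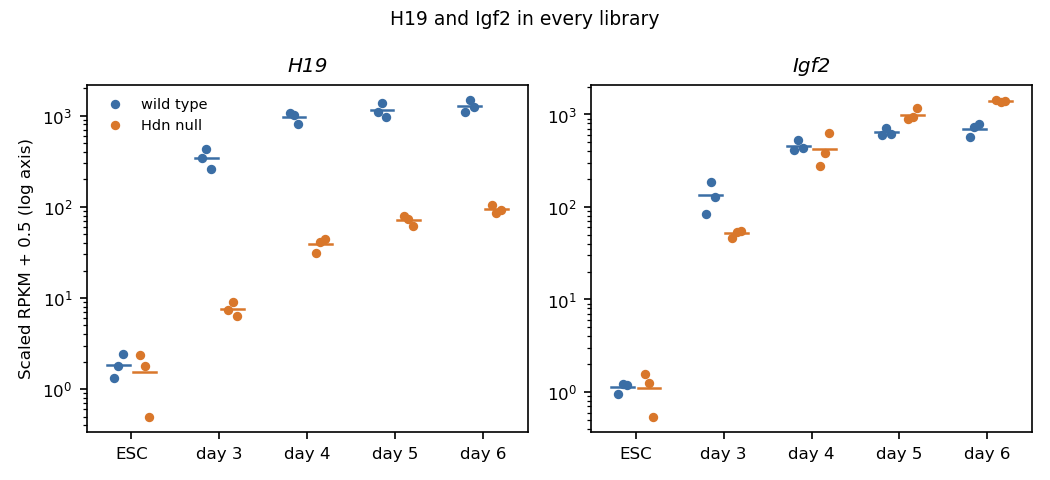
Scaled RPKM plus 0.5 (log axis) of H19 and Igf2 in every library by stage, wild type in blue and Hdn null in orange, with bars at the group means. From day 3 on the 3 mutant H19 points lie below all wild-type points, and Igf2 moves from below wild type on day 3 to above it on days 5 and 6.

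The cluster controlled by the non-coding RNA Kcnq1ot1 lies beside H19 and Igf2 on chromosome 7 and holds maternally expressed genes that restrain growth. Cdkn1c (chromosome 7, 143458339 to 143461059), an inhibitor of cyclin-dependent kinases, was lower in mutants on days 3 to 5. Wild-type libraries held 0.898, 0.904 and 0.875 in ESCs, 17.4, 43.7 and 20.3 on day 3, 94.9, 175 and 107 on day 4, 134, 332 and 206 on day 5 and 179, 276 and 305 on day 6. Mutant libraries held 1.21, 0.939 and 0.526 in ESCs, 7.79, 8.56 and 8.93 on day 3, 27.7, 37.9 and 46.3 on day 4, 66.7, 70.7 and 82.9 on day 5 and 126, 159.7 and 160.1 on day 6. All 3 mutants lay below the 3 wild-type libraries on each of days 3 to 6 and overlapped them in ESCs. Its log2 change was -1.72 (SE 0.31, adjusted p = 0.000295) on day 4 and -0.74 (SE 0.31, adjusted p = 0.0852) on day 6, where it missed both thresholds. Slc22a18 (143473726 to 143499334), a membrane transporter gene beside it, was lower on days 5 and 6. Its wild-type levels were 3.97, 3.78 and 3.52 in ESCs, 2.63, 4.07 and 3.47 on day 3, 4.6, 9.78 and 8.49 on day 4, 11.2, 22.6 and 17.8 on day 5 and 16.9, 32.4 and 27.6 on day 6. Its mutant levels were 4.74, 4.69 and 4.46 in ESCs, 1.63, 1.34 and 1.91 on day 3, 3.83, 4.41 and 3.78 on day 4, 5.49, 5.73 and 5.3 on day 5 and 6.34, 7.57 and 6.45 on day 6. Mutants lay above wild type in ESCs and below it on all 4 days, with a log2 change of -1.80 (SE 0.24, adjusted p = 3.75e-06) on day 6.

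Phlda2, which limits growth of the placenta, was not called at any stage. Its day 3 levels were 119, 207 and 107 in wild type and 56.5, 56.3 and 76.6 in mutants, with a log2 change of -1.14 (SE 0.51, adjusted p = 0.139), and its wild-type libraries spread widely. Osbpl5, a lipid transfer protein, Tssc4 and Cd81, a tetraspanin, had log2 changes between -0.73 and 0.55 at all stages and were not called. Cd81 nevertheless passed on adjusted p alone in both directions, at -0.67 (SE 0.10, adjusted p = 6.63e-06) in ESCs and 0.55 (SE 0.10, adjusted p = 0.000145) on day 6. Kcnq1ot1 itself and the potassium channel gene Kcnq1 were below the filter. The span of Kcnq1ot1 lies wholly within that of Kcnq1, and strand use in counting is not given, so their values cannot be told apart with certainty. Kcnq1ot1 reached 0.00153 to 0.00851 scaled RPKM in wild-type and 0.00384 to 0.0333 in mutant libraries. Trophoblast markers moved with these genes on day 3, when 6 of 9 tested markers were lower in mutants and the 10 listed summed to 1957 to 2397 in wild type and 733 to 992 in mutants. Elf5 was at 0 in 5 mutant libraries and never above 0.372 in any, and Krt8 and Krt18 supplied the highest values. On day 4 they summed to 2888 to 2939 in wild type and 2468 to 2550.2 in mutants, and on days 5 and 6 the sums overlapped. Single markers differed in direction under these sums. Ascl2, Tfap2c and Krt7 were called lower in mutants on days 4 to 6, while Cdx2 was called higher on days 4 and 5 and Hand1 on days 5 and 6. The part of these markers in the cluster's values was not tested.

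Peg10 and Sfmbt2, both paternally expressed and both needed for the placenta in mice, were lower in mutants on all 4 days. Peg10 (chromosome 6, 4747306 to 4760517) held 2.02, 2.81 and 2.34 in ESCs, 83.2, 118 and 69.3 on day 3, 153, 254 and 161 on day 4, 161, 293 and 244 on day 5 and 216, 299 and 238 on day 6 in wild type. Among mutants it stood at 1.46, 0.814 and 0.735 in ESCs, 11.6, 14.4 and 10.9 on day 3, 49.3, 48.8 and 93.5 on day 4, 68.1, 57.5 and 134 on day 5 and 101, 96.8 and 128 on day 6. Its groups did not overlap at any stage, ESCs included, where its log2 change was -0.97 (SE 0.30, adjusted p = 0.0109). The day 3 log2 change was -2.80 (SE 0.30, adjusted p = 5.19e-07), with means 7.36-fold apart, and the day 6 change was -1.20 (SE 0.30, adjusted p = 0.00392). Sgce, a sarcoglycan gene that shares the Peg10 control region, was not called at any stage, and its largest log2 change was -0.51 (SE 0.09) on day 3.

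Sfmbt2 (chromosome 2, 10370440 to 10595253), a Polycomb-related regulator of trophoblast, held 0.715, 0.848 and 0.826 in ESCs, 1.37, 2.96 and 1.87 on day 3, 3.44, 7.49 and 4.11 on day 4, 4.45, 8.62 and 7.79 on day 5 and 5.46, 7.51 and 5.38 on day 6 in wild type. Mutants showed 1.45, 1.9 and 1.78 in ESCs, 0.383, 0.564 and 0.381 on day 3, 0.77, 0.814 and 1.32 on day 4, 0.708, 1 and 1.91 on day 5 and 1.99, 1.72 and 1.85 on day 6. All 3 mutants were above wild type in ESCs, with a log2 change of 0.76 (SE 0.27, adjusted p = 0.0225), and below it on each later day. Mutant minus wild type was, on the log2 scale, -2.14 (SE 0.27, adjusted p = 2.65e-06) on day 5, with means 5.76-fold apart.

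Peg13, a paternally expressed non-coding RNA within an intron of Trappc9 on chromosome 15 (72805602 to 72810324), was below the filter at every stage. It separated the genotypes in all 30 libraries. Wild-type libraries held 83, 84 and 66 reads in ESCs and 99, 65 and 111 on day 6, and mutants held 7, 7 and 2 in ESCs and 6, 10 and 9 on day 6. Over all stages the range was 0.133 to 0.386 scaled RPKM in wild type and 0 to 0.0427 in mutants. The means over stages were 0.264 and 0.0158, with a two-sided permutation p of 1e-05 within stages, the smallest that 100000 resamples can give. This test was run on the 10 members below the filter, with these p-values not adjusted. Of the others, Rtl1 (p = 8e-05), Magel2 (p = 0.00059), Kcnq1ot1 (p = 0.0026) and Ppp1r9a (p = 0.0035) had higher means in mutants by this permutation test and Slc22a3 (p = 0.021) a lower one. In the same permutation test Kcnq1 (p = 0.47), Rasgrf1 (p = 0.64), Dcn (p = 1) and Kcnk9 (p = 1) passed no threshold. Kcnk9 had reads in 1 library alone. Trappc9, which surrounds Peg13, was tested and not called, with a log2 change of -0.80 (SE 0.22, adjusted p = 0.00479) in ESCs and 0.28 (SE 0.22, adjusted p = 0.401) on day 6. Spans of Peg13 and Trappc9 overlap, and how reads in overlaps were counted is not given. The span of Rtl1 likewise shares 6830 bp with that of Meg3 and 474 bp with that of Rian. Meg3 and Rian, which are maternally expressed, were called higher in mutant ESCs. Part of the reads counted for Rtl1 may belong to them, which was not tested.

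**Figure D4:**
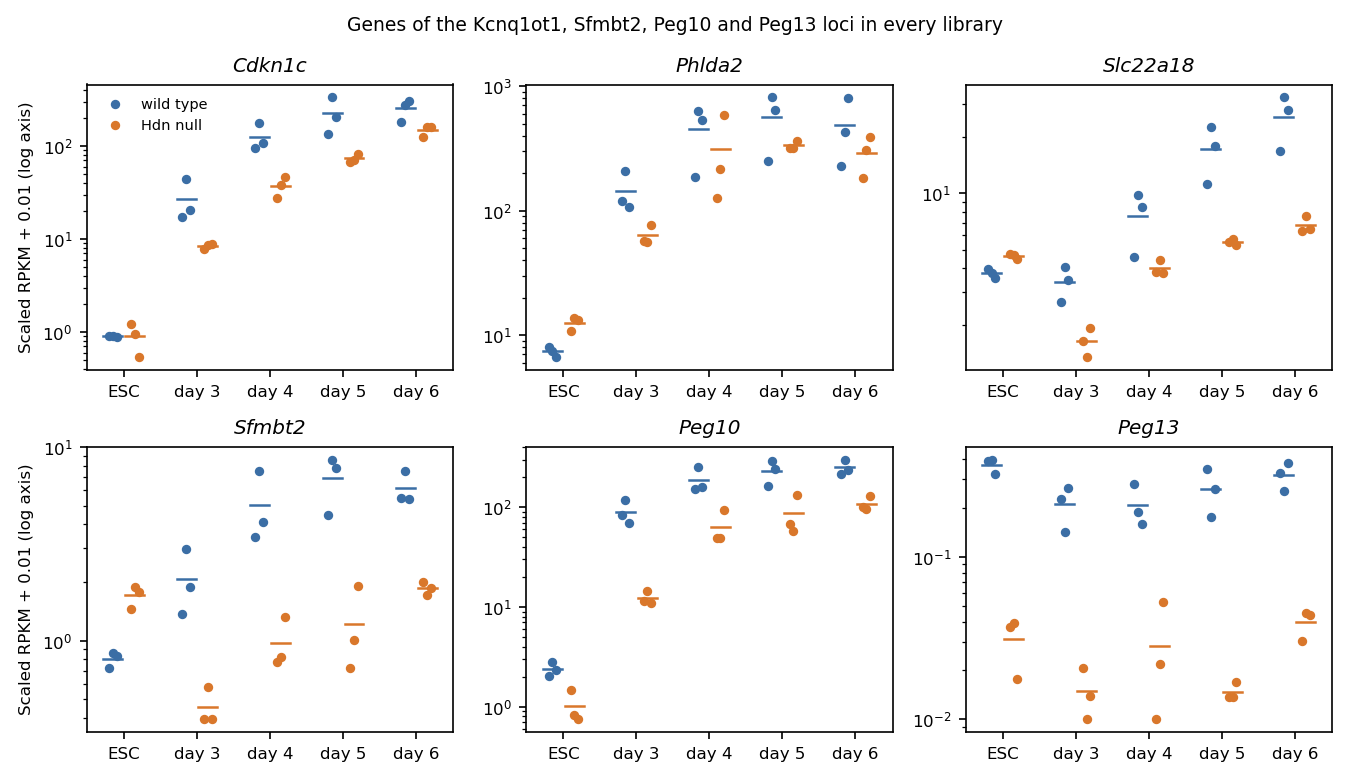
Scaled RPKM plus 0.01 (log axis) of 6 imprinted genes in every library by stage, wild type in blue and Hdn null in orange, with bars at the group means. Peg13, Peg10, Slc22a18 and Sfmbt2 are separated at all 5 stages. Mutants of Slc22a18 and Sfmbt2 lie above wild type in ESCs and below it on days 3 to 6. Cdkn1c is separated on days 3 to 6, while Phlda2 overlaps on days 4 to 6.

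Among the members that were higher in mutants, Grb10, an adaptor that dampens insulin and growth factor signalling, was called on all 4 days. Its wild-type levels were 4.79, 5.24 and 5.01 in ESCs, 7.47, 9.08 and 7.59 on day 3, 11.4, 11.4 and 9.56 on day 4, 15.8, 13.9 and 14.8 on day 5 and 20.8, 18 and 15.1 on day 6. Its mutant levels were 3.44, 4.62 and 4.27 in ESCs, 18.5, 18.1 and 13.9 on day 3, 23.2, 24 and 37.5 on day 4, 35.1, 32.9 and 38.3 on day 5 and 60.8, 41.1 and 43.9 on day 6. Mutants lay below wild type in ESCs and above it on each later day. On the log2 scale the difference was 1.02 (SE 0.17, adjusted p = 0.000146) on day 3 and 1.40 (SE 0.17, adjusted p = 1.1e-06) on day 6. At day 3 the change stood just past 1 and was 0.95 to 0.98 without wild-type replicate 1 or 3 or mutant replicate 1 or 2. Ddc, its neighbour on chromosome 11, was not called against wild type at any stage, and reached 0.89 (SE 0.13, adjusted p = 1.2e-05) on day 6.

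Igf2r, the maternally expressed receptor that clears Igf2, was higher on days 5 and 6. It lies on chromosome 17 (12682406 to 12769706) and is silenced on the paternal copy by Airn, a non-coding RNA that starts within it. Igf2r held 6.61, 8.44 and 6.24 in ESCs, 3.82, 3.58 and 4.11 on day 3, 5.26, 5.69 and 4.55 on day 4, 6.75, 6.33 and 7.17 on day 5 and 9.1, 10.7 and 9.84 on day 6 in wild type. In mutants it held 7.61, 8.16 and 7.56 in ESCs, 5.38, 5.07 and 3.09 on day 3, 8.6, 7.97 and 10.4 on day 4, 14.6, 11.7 and 25.9 on day 5 and 39.6, 24.6 and 28.5 on day 6. Log2 changes were 1.22 (SE 0.21, adjusted p = 0.00016) on day 5 and 1.57 (SE 0.21, adjusted p = 5.76e-06) on day 6, and mutants lay above all wild-type libraries on days 4 to 6. Without mutant day 5 replicate 3, which holds mature heart transcripts, the day 5 change was 0.90 and no longer called. Airn was higher as well without reaching a log2 change of 1, at 0.71 (SE 0.15, adjusted p = 0.00178) on day 4 and 0.57 (SE 0.15, adjusted p = 0.00752) on day 6. Its day 6 levels were 1.24, 0.976 and 1.56 in wild type and 1.9, 2.08 and 2.3 in mutants. The 2 spans share 28396 bp, and strand use in counting is not given, so part of the reads of 1 gene may be counted for the other.

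In the Dlk1-Meg3 cluster on chromosome 12, the maternal RNAs Meg3 and Rian were called in ESCs and the paternal gene Dlk1 on days 3 to 6, and none of the 3 passed the test of dependence on stage given further on. Dlk1 (109452485 to 109463336) held 0.0533, 0.0537 and 0.0513 in ESCs, 1.68, 0.634 and 0.491 on day 3, 34, 5.69 and 5.88 on day 4, 117, 28.5 and 27.8 on day 5 and 148, 84 and 149 on day 6 in wild type. Its mutant values were 0.151, 0.0863 and 0.00654 in ESCs, 5.42, 4.49 and 4.95 on day 3, 47.5, 64.8 and 13.4 on day 4, 237, 244 and 169 on day 5 and 397, 507 and 369 on day 6. Its log2 change was 2.01 (SE 0.56, adjusted p = 0.0155) on day 3, 1.67 (SE 0.56, adjusted p = 0.0364) on day 4, 2.23 (SE 0.56, adjusted p = 0.00562) on day 5 and 1.77 (SE 0.56, adjusted p = 0.0216) on day 6. On day 4 wild-type replicate 1 lay above mutant replicate 3, so the groups overlapped, and on the other 3 days they did not. Single libraries decided 3 of the 4 calls, with adjusted p between 0.0534 and 0.179 in their absence. These were wild-type replicates 2 and 3 and mutant replicate 1 for day 3, wild-type replicates 2 and 3 and mutant replicates 1 and 2 for day 4, and replicate 2 of either genotype for day 6. Meg3 held 3.32, 3.79 and 3.67 in wild-type and 6.23, 9.04 and 9.22 in mutant ESCs, a log2 change of 1.06 (SE 0.34, adjusted p = 0.0138). Rian held 4.6, 4.68 and 5.35 in wild-type and 7.31, 12.6 and 12.4 in mutant ESCs, a log2 change of 1.03 (SE 0.27, adjusted p = 0.00346). Neither call held when mutant replicate 2 or 3 was left out, at log2 changes of 0.90 to 0.98, nor did that of Rian in the absence of wild-type replicate 1 (0.99). Mirg, a microRNA host RNA of the cluster, was not called, at 0.51 (SE 0.24) in ESCs. Later Rian lay above all wild-type libraries on days 3, 5 and 6 without reaching a log2 change of 1, at 0.80 (SE 0.27, adjusted p = 0.0369) on day 5 and 0.79 (SE 0.27, adjusted p = 0.0341) on day 6. On day 6 it held 8.13, 4.38 and 8.27 in wild type and 9.93, 14.5 and 11.6 in mutants. Meg3 overlapped between genotypes on day 6, with 3.88, 0.933 and 1.46 in wild type and 1.79, 2.18 and 1.7 in mutants.

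Nnat, which lies inside an intron of the maternally expressed Blcap on chromosome 2, was higher on days 5 and 6. Wild-type libraries held 1.41, 2.13 and 1.35 in ESCs, 14.3, 13.3 and 15.3 on day 3, 44.1, 18.7 and 23.4 on day 4, 139, 26.4 and 30.5 on day 5 and 125, 46 and 99.1 on day 6. Mutant libraries held 2.68, 1.86 and 1.52 in ESCs, 18.2, 19.1 and 19.3 on day 3, 49.9, 78.7 and 44.7 on day 4, 177, 203 and 119 on day 5 and 268, 387 and 262 on day 6. Mutant minus wild type was, on the log2 scale, 1.74 (SE 0.44, adjusted p = 0.00536) on day 5 and 1.85 (SE 0.44, adjusted p = 0.00249) on day 6. Wild-type replicate 1 reached 139 on day 5, above the lowest mutant at 119, so the groups overlapped there. With wild-type replicate 2 left out, the day 5 change was 1.31 and not called (adjusted p = 0.0597). Blcap was not called, at -0.33 (SE 0.12) on day 6.

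Mest, a hydrolase of mesoderm and fat cells, was higher on days 5 and 6. It held 6.62, 7.24 and 5.58 in ESCs, 11.2, 7.51 and 9.19 on day 3, 36, 14.6 and 9.88 on day 4, 54, 13.4 and 27.2 on day 5 and 38.1, 22.7 and 41.4 on day 6 in wild type. Mutant libraries had 9.11, 7.26 and 7.02 in ESCs, 8.54, 9.77 and 6.75 on day 3, 33.7, 38 and 28.9 on day 4, 56.7, 62.8 and 108 on day 5 and 107, 93.2 and 72.1 on day 6. On the log2 scale the difference was 1.41 (SE 0.39, adjusted p = 0.0106) on day 5 and 1.43 (SE 0.39, adjusted p = 0.00784) on day 6. Neither call held when wild-type replicate 2 of its day was left out (log2 changes of 0.91 and 1.16, adjusted p = 0.125 and 0.0665). That of day 5 also needed mutant replicate 3, whose absence gave 1.13 (adjusted p = 0.0648). Copg2, a vesicle coat gene that overlaps the Mest span by 913 bp, was not called, with a log2 change of 0.29 (SE 0.10) on day 6.

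In the Snrpn cluster of chromosome 7, whose human counterpart is tied to Prader-Willi and Angelman syndromes, Ndn and Peg12 were higher on days 5 and 6. Ndn, a growth suppressor of the MAGE family, held 1.39, 1.49 and 1.23 in ESCs, 4.92, 2.11 and 3.07 on day 3, 4.54, 2.66 and 3.32 on day 4, 7.49, 4.1 and 5.04 on day 5 and 7.31, 6.27 and 16.1 on day 6 in wild type. In mutants it held 1.14, 0.64 and 0.761 in ESCs, 1.88, 2.14 and 2.5 on day 3, 3.75, 4.98 and 4.25 on day 4, 11.3, 13.4 and 14.8 on day 5 and 19.9, 31 and 22.2 on day 6. Log2 changes were 1.21 (SE 0.28, adjusted p = 0.00285) on day 5 and 1.35 (SE 0.28, adjusted p = 0.00078) on day 6, and the groups did not overlap on either day. Peg12, a regulator of Wnt signalling in the Frat family, lay below wild type in ESCs, with 0.971, 1.14 and 0.803 in wild type and 0.51, 0.244 and 0.273 in mutants, and was not called there at -0.81 (SE 0.29, adjusted p = 0.0274). It held 1.92, 1.73 and 1.32 in wild type and 5.64, 3.41 and 4.4 in mutants on day 6, a log2 change of 1.20 (SE 0.29, adjusted p = 0.00349). On day 5 it was called at 1.01 (SE 0.29, adjusted p = 0.0146), which did not hold when replicate 2 of either genotype was left out (0.64 and 0.91). Snrpn, a splicing factor gene, was not called but lay above wild type on days 3, 5 and 6 in every library, with 0.59 (SE 0.14, adjusted p = 0.00277) on day 5. Mkrn3, a ubiquitin ligase, had log2 changes between -0.04 and 0.22. Ube3a, a ubiquitin ligase that is imprinted in neurons, was not called, at 0.81 (SE 0.27) in ESCs.

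Asb4, a maternally expressed ubiquitin ligase subunit known from the developing vasculature and placenta, was higher on days 4 and 6. Its wild-type levels were 0.0822, 0.0552 and 0.0681 in ESCs, 0.0777, 0.0129 and 0.0379 on day 3, 0.0695, 0.198 and 0.312 on day 4, 0.284, 0.985 and 1.81 on day 5 and 0.249, 0.947 and 4.28 on day 6. Its mutant levels were 0.0973, 0.189 and 0.122 in ESCs, 0.152, 0.143 and 0.245 on day 3, 0.704, 1.3 and 13.1 on day 4, 1.79, 2.34 and 3.76 on day 5 and 4.14, 10 and 6.25 on day 6. Mutant day 4 replicate 3, 1 of the libraries with mature heart transcripts, held 13.1 against 0.704 and 1.30 in its fellows. Without it the day 4 log2 change went from 2.17 (SE 0.62, adjusted p = 0.0131) to 1.10 (adjusted p = 0.137). The day 6 change was 2.00 (SE 0.62, adjusted p = 0.0175), and it did not hold when wild-type replicate 1 or 2 or mutant replicate 2 was left out (adjusted p = 0.115, 0.0721 and 0.0853). Plagl1, a zinc finger factor that acts on other imprinted genes in mice, was higher in ESCs and again on day 6. Wild-type libraries held 2.58, 3.12 and 2.96 in ESCs, 0.254, 0.0823 and 0.0706 on day 3, 0.14, 0.18 and 0.28 on day 4, 0.689, 0.327 and 0.303 on day 5 and 1.17, 0.481 and 3.06 on day 6. Mutant libraries held 3.7, 8.52 and 7.68 in ESCs, 0.0851, 0.092 and 0.045 on day 3, 0.242, 0.282 and 0.406 on day 4, 0.655, 0.462 and 0.866 on day 5 and 3.92, 6.78 and 4.05 on day 6. Its log2 change was 1.00 (SE 0.32, adjusted p = 0.0119) in ESCs and 1.55 (SE 0.32, adjusted p = 0.000598) on day 6. Leaving out wild-type ESC replicate 1 or mutant ESC replicate 2 or 3 took the ESC change to between 0.80 and 0.93, below the limit. With only the day 6 libraries fitted, the day 6 call ended at an adjusted p of 0.0505.

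**Figure D5:**
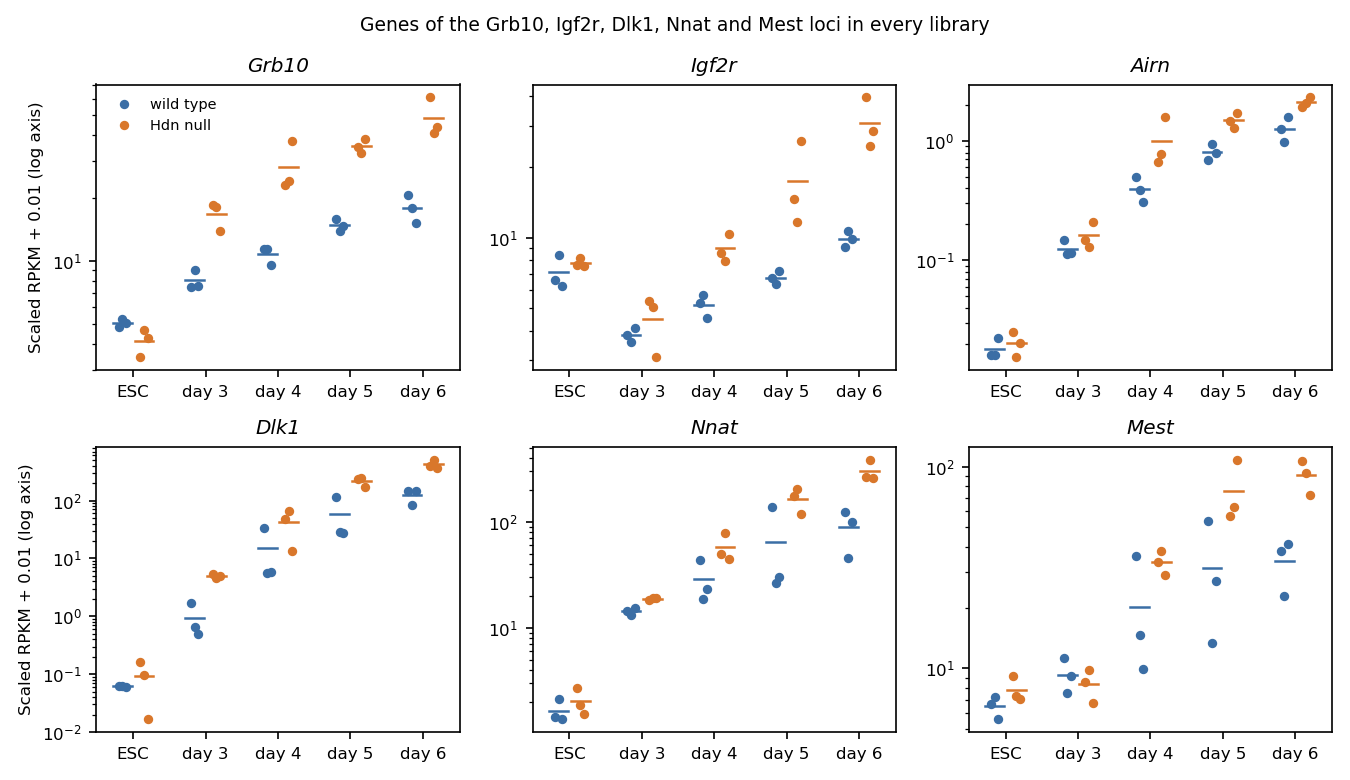
Scaled RPKM plus 0.01 (log axis) of 6 imprinted genes in every library by stage, wild type in blue and Hdn null in orange, with bars at the group means. Grb10 is separated from day 3 on and Igf2r and Airn from day 4 on, while the wild-type points of Dlk1, Nnat and Mest spread widely on days 4 and 5 and replicate 1 is the highest of them.

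Markers of other cell types were also called higher in mutants at the last stage. On day 6, 6 of 7 mesenchyme and fibroblast markers (among them Col1a1 and Lum) were higher in mutants, and their sum was 17.2 to 54 in wild type and 86.2 to 168 in mutants. All 6 tested heart markers and all 4 tested red cell genes were higher on day 6 as well, when 3.66% of all genes were higher. Grb10 and Dlk1 were called from day 3, when Col1a1 and Lum were not called (log2 changes of 0.299 and -0.385). The part of these cells in the day 6 values of Igf2, Igf2r, Nnat, Dlk1, Mest, Ndn, Peg12, Plagl1, Asb4 and Grb10 was not tested. On day 5, Grb10, Nnat, Dlk1, Ndn and Peg12 kept their calls without mutant day 5 replicate 3, and Mest and Igf2r lost theirs.

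The ESC difference was led by Impact, Peg3 and Zdbf2, which are paternally expressed genes of 3 different chromosomes. Impact held 6.05, 6.79 and 7.12 in ESCs, 16.4, 14.1 and 11.2 on day 3, 13.2, 12.8 and 9.7 on day 4, 11.3, 15.8 and 12 on day 5 and 14.3, 14.1 and 14.5 on day 6 in wild type. Mutants showed 14.9, 29.7 and 27.2 in ESCs, 6.01, 7.57 and 6.48 on day 3, 5.87, 6.9 and 13.5 on day 4, 7.82, 6.87 and 11.4 on day 5 and 9.6, 11 and 9.41 on day 6. Mutants were above wild type in ESCs, at a log2 change of 1.72 (SE 0.25, adjusted p = 4.94e-06), and below it on days 3 and 6, when Impact was not called, at -0.99 (SE 0.25) and -0.50 (SE 0.25). Peg3, a zinc finger repressor, held 0.888, 1.16 and 1.31 in ESCs, 6.97, 8.42 and 6.95 on day 3, 12.1, 13.3 and 11.4 on day 4, 13.5, 15 and 14 on day 5 and 16.1, 13.1 and 14.4 on day 6 in wild type. The 3 mutants had 3.22, 4.34 and 3.87 in ESCs, 8.23, 7.99 and 7.85 on day 3, 12.6, 11.6 and 15.7 on day 4, 15.8, 11.8 and 19.5 on day 5 and 26.4, 22.7 and 21.9 on day 6. Its log2 change was 1.42 (SE 0.15, adjusted p = 5.98e-08) in ESCs, between 0.10 and 0.12 on days 3 to 5, and 0.68 (SE 0.15, adjusted p = 0.0012) on day 6. Usp29 and Zim1, its paternally and maternally expressed neighbours, were not called, and Zim1 reached 0.83 (SE 0.12, adjusted p = 8.59e-06) on day 6. Zdbf2, a zinc finger gene controlled from a distant paternal start, held 0.311, 0.266 and 0.382 in wild-type and 1.25, 1.47 and 1.33 in mutant ESCs, at a log2 change of 1.18 (SE 0.17, adjusted p = 4.53e-06), and log2 changes between -0.20 and 0.40 afterwards. Inpp5f was not called, at 0.66 (SE 0.17) in ESCs. Gnas, which encodes the stimulatory G protein subunit, was not called at any stage.

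The dependence of the mutant difference on stage was tested in 1 model across the 5 stages. It passed for 21 of the 38 members, 9 maternal and 12 paternal, where 42.2% of all genes passed. H19, Igf2, Cd81, Grb10, Sfmbt2, Impact and Ddc were among them. Dlk1, Nnat, Mest, Asb4, Meg3 and Rian were not, so their differences at 1 stage were not shown to differ from those at another. With an estimated correlation among same-numbered libraries of a genotype, Nnat (adjusted p = 0.0485) and Mest (adjusted p = 0.0357) passed in limma. Dropping 1 library put Dlk1, Nnat, Mest or Asb4 past the threshold in some cases, with adjusted p down to 0.0319, 0.00117, 0.0092 and 0.0388. By limma-voom 14 members passed, 13 of them among the 21, beside 5084 of 14006 genes. By limma-voom H19, Igf2, Cdkn1c, Zim1, Peg10, Sgce, Plagl1 and Airn did not pass (adjusted p between 0.0517 and 0.743). Trappc9, which is among the 21, passed in only 21 of 39 alternative runs, with an adjusted p of up to 0.262 by this F test.

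Promoter sequence was examined because ZFP57, the zinc finger protein that keeps methylation at imprinting control regions in ESCs, binds the hexamer TGCCGC when it is methylated. RefSeq windows of 250 bases before a transcript start were found for 37 of the 48 members (57 windows on GRCm38.p6). Of these, 8 windows of 7 members held TGCCGC or its reverse complement GCGGCA, which is 14% beside 8.68% of all 32851 windows. The Mest windows that start at 30737800 and 30737803 overlap, and both count, with 2 hexamers each. By gene, 7 of the 37 members held it, beside 9.84% of 27025 genes. Other windows of Mest (from 30733256), Zdbf2 (from 63273019) and Meg3 (from 109545148) held 0. A match is a description and not a binding site. Shown are the windows of the 4 members called between genotypes that hold it, with the hexamer on either strand in capitals, each read 5′ to 3′ on the plus strand: Mest (chr6:30737800-30738049, 2 hexamers), Plagl1 (chr10:13090582-13090831, 1 hexamer), Zdbf2 (chr1:63200108-63200357, 3 hexamers) and Meg3 (chr12:109540746-109540995, 1 hexamer). They hold 14, 19, 13 and 10 CpG dinucleotides, where the median is 10 over the members' windows and 6 over all windows.
Mest: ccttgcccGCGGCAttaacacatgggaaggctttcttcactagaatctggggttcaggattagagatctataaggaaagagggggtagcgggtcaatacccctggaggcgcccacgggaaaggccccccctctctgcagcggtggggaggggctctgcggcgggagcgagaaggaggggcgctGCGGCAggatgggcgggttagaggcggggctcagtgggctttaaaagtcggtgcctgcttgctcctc
Plagl1: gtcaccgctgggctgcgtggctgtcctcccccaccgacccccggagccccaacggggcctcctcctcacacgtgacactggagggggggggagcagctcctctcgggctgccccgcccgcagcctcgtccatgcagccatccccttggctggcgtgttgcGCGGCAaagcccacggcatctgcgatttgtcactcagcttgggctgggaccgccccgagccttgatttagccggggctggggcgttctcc
Zdbf2: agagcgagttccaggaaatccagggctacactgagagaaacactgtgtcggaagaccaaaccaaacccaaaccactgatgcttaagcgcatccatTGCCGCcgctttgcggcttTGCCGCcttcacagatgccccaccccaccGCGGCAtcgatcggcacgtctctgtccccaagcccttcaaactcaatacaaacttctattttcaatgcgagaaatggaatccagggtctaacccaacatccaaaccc
Meg3: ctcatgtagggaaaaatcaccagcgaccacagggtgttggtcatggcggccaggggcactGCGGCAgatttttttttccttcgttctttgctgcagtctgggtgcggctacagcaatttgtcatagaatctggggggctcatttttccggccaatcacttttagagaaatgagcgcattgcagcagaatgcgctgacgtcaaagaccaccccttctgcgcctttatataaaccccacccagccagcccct
Copg2, Zim1 and Osbpl5, which were not called between genotypes at any stage, hold 1 hexamer each. Zfp57 itself was at 93.0 to 95.0 scaled RPKM in wild-type and 109 to 112 in mutant ESCs and was not called.

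The regulators of imprinting, 17 of 18 listed genes tested, held 5 genes that were higher and 0 that were lower in mutant ESCs by limma, where 8.55% of all genes were higher and 3.13% lower. Dnmt3l and Dppa3 were called at 2 or more stages. Dnmt3l, a partner of the DNA methyltransferases, held 18.5, 22.1 and 17.9 in wild-type and 61.8, 59.9 and 62.6 in mutant ESCs (log2 change 1.64), and 22.9, 18.1 and 17.1 against 1.34, 1.9 and 2.91 on day 3 (log2 change -3.0). It was also lower on days 4 and 5. Dppa3, which guards maternal methylation in the zygote, held 4.92, 6.98 and 5.25 in wild type and 1.32, 1.34 and 1.62 in mutants on day 3 (log2 change -1.68) and was lower on day 4 as well.

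Among 24 further imprinted genes outside the 48, of which 13 were tested, 5 were called at 2 or more stages. Ascl2, a maternally expressed trophoblast factor near the Kcnq1ot1 cluster, was lower on days 3 to 6, with 18.1, 64 and 48 in wild type and 2.35, 2.42 and 3.68 in mutants on day 4 (log2 change -3.57). Gab1, a signalling adaptor, was lower on the same 4 days, with 28.3, 22.1 and 19.4 against 5.42, 6.11 and 4.33 on day 3 (log2 change -2.03). Dio3, the thyroid hormone-inactivating enzyme at the far end of the Dlk1 cluster, was lower on days 4 to 6, with 7.49, 16.5 and 13.2 against 0.419, 0.527 and 0.858 on day 5 (log2 change -3.50), while Dlk1 was higher on those days. Smoc1, a secreted matrix protein, was lower on days 3, 4 and 6, with log2 changes of -1.07, -1.41 and -1.58. Jade1 was higher in ESCs at 1.13 and lower on days 5 and 6 at -1.35 and -1.23. Of the 13 tested, 1 was higher and 5 were lower on day 6, where 3.66% of all genes were higher and 4.12% lower.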

How the data were processed

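Libraries were prepared from total RNA with the ScriptSeq v2 kit, per the labels' protocols. Reads were processed with STAR and DESeq2 on mm10, per the submitters' processing notes; their versions, and the annotation, counting rule and strand setting, were not stated there. The sample titles, which name Hdn and ESC stages, were followed, although the series' design names Brachyury mutants and the growth protocol embryonic hearts. The 3 4C samples and the 1 embryonic heart sample were not analysed here.

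The authors deposited RPKM for 52636 genes in 1 table. Its header lacks a name for the identifier column, and each value column was matched to its library by title with that shift taken into account. RPKM were divided by median-ratio size factors over 11618 genes (0.888 to 1.106), and log2(scaled RPKM + 0.5) was fitted with limma 3.58.1 in R 4.3.3, with 1 mean per group over 30 libraries, a trend in the prior variance and Benjamini-Hochberg adjustment over 14196 genes. RPKM keep whole-read steps. Reads were recovered for 99.5% of 35161 genes above 0 (tolerance 0.001 of a read) and used for read numbers and, as an alternative chosen after seeing the data, for limma-voom. On data simulated for the day 3 comparison the fit was checked. Members below the filter were compared with a permutation test within stages. Positions and names are from RefSeq on GRCm38.p6 and its symbol table.

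The members, lists and tests were chosen with earlier results of these data known. Per-library values are given for the 16 called members with the largest change, with their cluster partners, and genes of the other lists are named when called at 2 or more stages. Alternatives were other scalings, pseudocounts of 0.1 and 1, no filter, adjusted p alone, only the libraries compared, leaving out each library, a replicate block, an estimated correlation among same-numbered libraries of a genotype (added after seeing the data) and leaving out libraries with heart transcripts.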

Additional observations from a re-analysis of the deposited data

Results flagged for a closer look

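The mutant difference of 21 members depended on stage, by the F test across the 5 stages in limma, which passed for 42.2% of all genes. The maternally expressed members were H19 (adjusted p = 8.06e-07), Cdkn1c (0.0132), Slc22a18 (0.000252), Tssc4 (0.00202), Cd81 (7.72e-07), Zim1 (0.00132), Grb10 (2.36e-05), Igf2r (0.00105) and Trappc9 (0.0418). Trappc9 passed in only 21 of 39 alternative runs, with an adjusted p of up to 0.262 by this F test. The paternally expressed members were Igf2 (0.00111), Peg3 (4.81e-05), Impact (1.14e-05), Peg10 (0.00891), Sgce (0.00238), Ddc (2.08e-05), Plagl1 (0.0198), Ndn (0.000587), Peg12 (0.00192), Airn (0.0239), Zdbf2 (0.000573) and Sfmbt2 (1.28e-05).

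Of these, 6 took both signs across stages with an adjusted p under 0.05 in each direction. Cd81 went from a log2 change of -0.67 in ESCs to 0.55 on day 6, Peg12 from -0.81 to 1.20, and Sfmbt2 from 0.76 in ESCs to -2.14 on day 5. Impact went from 1.72 in ESCs to -0.99 on day 3, Igf2 from -1.30 on day 3 to 1.01 on day 6, and Ddc from -0.47 to 0.89 over the same days. The ESC comparison rests on wild-type ESC libraries with the lowest Y-linked transcripts of all 30, and the day 6 comparison on mutants with mature heart transcripts. The part of either was not tested.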

How the results depend on the processing

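No call of a member reversed in 2338 repeats of 136 calls, of which 2256 kept their side of the thresholds and 82 did not. H19, Peg10 and Sfmbt2 on days 3 to 6, Cdkn1c on days 3 to 5, Slc22a18 on days 5 and 6, Grb10 on days 4 to 6, and Peg3 and Impact in ESCs kept their calls in every alternative run. So did Ndn on days 5 and 6, Dlk1 on day 5, and Nnat and Igf2r on day 6. Peg12 kept its day 6 call in each run that tested it. The cause of the moves below was not tested.

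Counts of members that moved by more than 1.5 times were as follows. With a pseudocount of 1, 2 members were higher in ESCs and 1 on day 3, beside 862 and 87 of 14196 genes. With a pseudocount of 0.1, 2 were lower in ESCs, 5 fell from wild-type ESC to day 3 and 2 to day 6. The counts over 14196 genes were 711, 3269 and 3411. By limma-voom, chosen after seeing the data, 10 were higher and 3 lower in ESCs and 5 were higher on day 4. From wild-type ESC, 5 fell to day 3 and 3 to day 6. Of 14006 genes in the limma-voom fit, 1607 were higher and 844 lower in ESCs and 596 were higher on day 4. From wild-type ESC, 3311 genes fell to day 3 and 3488 to day 6. With adjusted p alone, which has no limit on size, 6 were lower in ESCs and 11 on day 3. By that rule 8 were higher on day 4, 13 on day 5 and 19 on day 6, and 21 were higher and 8 lower on average. From ESC to day 3, 9 fell in wild type and 11 in mutants, and 7 fell to day 6 in wild type. Of all 14196 genes, 3283 were lower in ESCs by that rule and 1429 on day 3. Higher were 1593 on day 4, 1408 on day 5 and 1743 on day 6, and 3888 were higher and 3633 lower on average. From ESC to day 3, 5305 genes fell in wild type and 5535 in mutants, and 5322 fell to day 6 in wild type. With only the libraries compared, 1 was higher on day 4 and 4 on day 5, beside 187 of 11315 and 263 of 11521 genes. Calls in limma then ended for Dlk1 on day 4 (adjusted p = 0.249), Nnat, Mest and Peg12 on day 5 (0.105, 0.104 and 0.0947) and Asb4 on day 6 (0.0675). The ESC calls lost with a pseudocount of 1 were those of Plagl1, Meg3, Rian and Zdbf2. With each library at the same sum, 5 fell from wild-type ESC to day 3, beside 3586 of 14323 genes.

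Leaving out 1 library gave 3 to 6 higher and 0 to 1 lower members in ESCs, 0 to 2 higher and 5 to 6 lower on day 3, 2 to 6 higher on day 4, 4 to 8 on day 5 and 7 to 10 on day 6. Wild-type ESC to day 6 gave 1 to 2 members that fell, with 2 when wild-type day 6 replicate 1 or 3 was left out. The log2 ratio of Zim1 to Peg3, and once that of Igf2r to Airn, moved with the pseudocount in 5 of 60 repeats. Scaling each library to 1 common sum put the median log2 change of all genes at -0.20 from ESC to day 3 in wild type, -0.30 in mutants, and -0.24 to day 6 in mutants. That scaling gave 1601 genes higher and 268 lower in ESCs, beside 1214 and 444, and 167 and 268 on day 3, beside 124 and 352. From ESC to day 3 it gave 1905 and 3586 in wild type, beside 2471 and 2883, and 2164 and 3979 in mutants, beside 2580 and 3061. Same-numbered libraries had correlations of deviations from -0.523 to 0.409 and the labels name no shared batch, so the numbers do not pair the genotypes. Across stages within a genotype, same-numbered libraries had a median correlation of 0.132 in wild type and 0.124 in mutants, against -0.058 and -0.10 for other numbers. With that correlation estimated in limma (0.108), chosen after seeing the data, 3 members were higher and 4 lower on average and 24 depended on stage, beside 21. In that fit 109 of 14196 genes were higher and 269 lower on average, and 6776 depended on stage, beside 5997 in the main fit. With a replicate block, 6 members were higher in ESCs, 2 higher and 6 lower on day 3, 3 and 4 on day 4, 7 and 5 on day 5 and 10 and 4 on day 6. Peg13, Kcnq1ot1 and the other 8 members below the filter were too low in scaled RPKM for the filter, and no call is stated for them.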
